A study of Homo sapiens with 12 samples.

Results

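DNA replication and the G1/S transition were followed through 42 of the 37471 genes in an RNA-seq table of CAL62 cells, a line from an anaplastic thyroid carcinoma. The 42 genes were taken by name for what their products do: licensing of origins, the replication fork, nucleotide supply, chromatin assembly behind the fork, G1/S control and S-phase repair. The rule goes by function, although the list was drawn up with earlier results of these data known, and all 42 averaged at least 1 FPKM (fragments normalised to transcript length and library size) over the 12 libraries. They were therefore all among the 9778 genes tested. The study built isogenic CAL62 lines in which doxycycline switches on either a scrambled control or the mature microRNA hsa-miR-139-5p. Its stated interest is the effect of miR-139-5p on the RNA-binding protein HNRNPF and on transcript balance.

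The 4 groups held 3 libraries each. They were the miR-139 line treated with 1 µg/ml doxycycline for 96 h, the same line untreated, the scrambled line treated in the same way, and the scrambled line untreated. The untreated libraries carry a time label of 0 h, whereas the series text describes growth with or without the drug for 96 h. All groups share the CAL62 background, the inducible cassette and poly(A)-selected RNA. In the scrambled line, doxycycline also induces the scrambled control, and by the time labels treatment goes with 96 h of culture. The effect of the drug alone is therefore not isolated. Each line is an engineered derivative of a single tumour line, and whether it was cloned is not given. The expression columns also carry a tag, C, NE or TR, with 1 library of every group under each tag. What the tags stand for, and how they relate to the replicate letters, is not given in the sources used here. The labels do not say that replicate libraries came from separate cultures, so the p-values below measure only the spread between these libraries.

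Origins are licensed in G1, when ORC, CDC6 and CDT1 load the MCM helicase onto DNA; CDC45 and GINS then turn it into the active helicase at the fork. Primase and polymerase alpha start each new strand, polymerases delta and epsilon extend it with the PCNA clamp, and FEN1 and LIG1 join the lagging-strand pieces. Most of these genes are classical targets of E2F transcription factors, which are released from RB when cyclin-CDK complexes phosphorylate it, and their mRNAs peak around the G1/S boundary in proliferating cells.

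Values summed to between 534216 and 664359 FPKM per library. Sequencing depth relative to the C library of untreated miR-139 cells (set at 1) was estimated from the most common ratio between nonzero values under 0.1 FPKM. It ran between 0.720 and 1.497, and 21.1% to 30.1% of the genes used lay at or next to that ratio. The absolute depth is unknown, so no counting interval is given. No 2 libraries of the 66 pairs held identical values. HNRNPF, the reported target, averaged 98.5 ± 13.7 FPKM in doxycycline-treated miR-139 cells, against 205 ± 28.8 in untreated miR-139 cells, 216 ± 43.3 in treated scrambled cells and 208 ± 32.6 in untreated scrambled cells (SD, n = 3 each), and its treated miR-139 libraries lay below the other 9. Of 6 thyroid lineage genes, PAX8 alone exceeded 1 FPKM on average. Of 4 leukocyte genes 3 were listed at 0 in every library, while CD68 averaged 8.68 FPKM.

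The 42 mRNAs covered a wide span of levels. PCNA, the sliding clamp, was the most abundant at a mean of 303 FPKM, and the activator E2F2 the least at 2.24 FPKM. The median of the 42 means was 31.6 FPKM, against 14.4 FPKM over all tested genes. Above 100 FPKM there were 3 genes, PCNA and the ribonucleotide reductase subunits RRM1 (157) and RRM2 (132). Between 10 and 100 FPKM lay 37 genes, and only ORC1 (8.10) and E2F2 averaged under 10 FPKM. FPKM is a value per transcript length, so these levels can be set beside each other, although the transcript models behind the lengths are not given.

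Subunits of the same machine did not share a level. In the origin recognition complex, ORC6 averaged 49.4 FPKM and ORC1, an ATPase subunit, 8.10 FPKM. In the GINS complex, GINS1 averaged 42.1, GINS2 24.4 and GINS3 14.9 FPKM. The polymerases were closer together: the primase subunit PRIM1 and the polymerase alpha catalytic subunit POLA1 averaged 22.5 and 15.1 FPKM, the polymerase delta catalytic subunit POLD1 29.00 FPKM and the polymerase epsilon catalytic subunit POLE 32.0 FPKM. Among repair genes, RAD51AP1, which acts in homologous recombination, was highest at 39.1 FPKM and EXO1, a 5′ exonuclease, lowest at 12.6 FPKM. The ratio of the highest to the lowest library ran from 1.40 for the cyclin CCNE1 to 2.90 for GINS2.

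**Figure D1:**
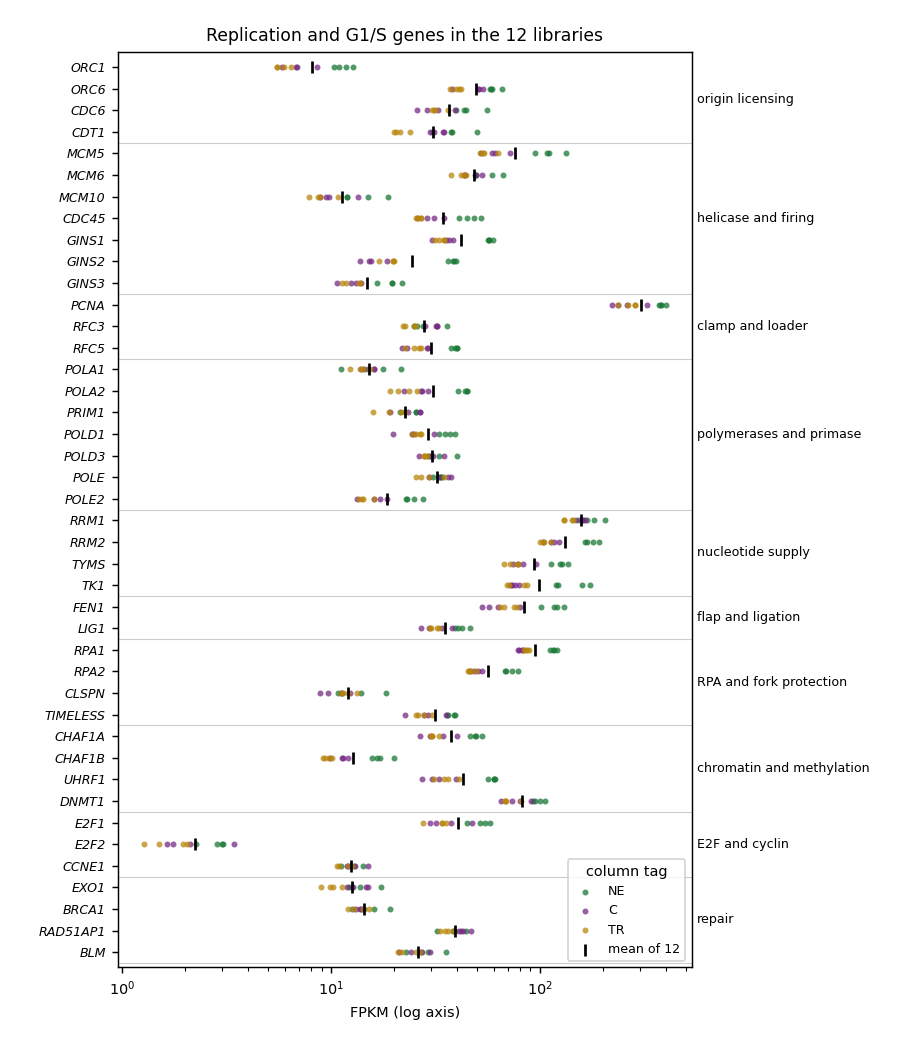
FPKM of each gene in each of the 12 libraries (points, coloured by column tag, log axis) with the mean of the 12 (black bar), grouped by role. The genes span 2.24 FPKM for E2F2 to 303 FPKM for PCNA, and the NE points lie to the right in most rows.

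No replication mRNA was called as changed when miR-139-5p was induced, in a fit that called no gene at all. In doxycycline-treated against untreated miR-139 cells, limma called (adjusted p under 0.05 over all tested genes) 0 of the 42 genes, and also 0% of the 9778 genes tested. HNRNPF, the reported target, was thus not called by this fit either, so the lack of calls is not particular to the 42 genes. Unadjusted p-values under 0.05 were found for 0 of the 42 and for 72 of all tested genes. The median log2 difference of the 42 was −0.01, 19 of them being positive, against a median of 0.00 over all tested genes. The 95% intervals of all 42 included 0, and 41 of them lay within 1 log2 unit of 0 on either side; the exception was GINS2, with an upper bound of 1.07. This fit had no term for column tag, and its median SE over the 42 genes was 0.24. Its smallest adjusted p over all tested genes was 0.337 (limma), although log2 differences ran from −1.44 to 1.18. Differences of about 1 log2 unit could therefore also go uncalled in it. With the column tag as a replicate block the SE fell from 0.44 to 0.10 for GINS2 and from 0.16 to 0.10 for PRIM1. That fit also called 0 of the 42 genes.

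PRIM1, the catalytic subunit of primase, had the smallest p. It had 21.3, 19.1 and 16.0 FPKM in the NE, C and TR libraries of treated miR-139 cells, against 25.5, 23.3 and 21.6 FPKM in the same libraries of untreated miR-139 cells. The treated values were lower under every tag and the groups of 3 did not overlap, which held for 1 of the 42 genes and for 4.39% of all tested genes. The log2 difference was −0.31 ± 0.16 SE, with a limma adjusted p of 1.00, also with the column tag as a replicate block. PRIM1 shares 33 exonic bases on the same strand with NACA, whose mean was 1290 FPKM, so its values may not be separable from that neighbour's.

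CCNE1, cyclin E1, which activates CDK2 at the G1/S boundary, had 14.1, 15.0 and 12.6 FPKM in the NE, C and TR libraries of treated miR-139 cells, against 12.9, 12.1 and 12.01 FPKM in untreated miR-139 cells. E2F2 had 3.02, 3.43 and 2.04 FPKM in treated miR-139 cells, against 3.03, 2.10 and 1.51 FPKM in untreated miR-139 cells. The groups overlapped for both genes, with log2 differences of 0.16 ± 0.13 SE and 0.26 ± 0.23 SE and adjusted p-values of 1.00 (limma).

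The microRNA and its possible sites in these genes are shown because a seed match is the usual mark of a direct target. Capitals mark the seed (bases 2 to 8) in the microRNA, from RefSeq (GRCh38.p14), and the complementary letters ACTGTAG in the longest annotated 3′ UTR of GENCODE 29 (GRCh38).
hsa-miR-139-5p (chr11:72615102-72615124, minus strand): uCUACAGUgcacgugucuccagu
CDC6 3′ UTR site (chr17:40303977-40303983, plus strand): ttcctcttaACTGTAGggct
CHAF1B 3′ UTR site (chr21:36417798-36417804, plus strand): tggttctcaACTGTAGctgc
RFC3 3′ UTR site (chr13:33836954-33836960, plus strand): aggtatgttACTGTAGtaat
The match was present in 3 of the 42 genes (7.14%), against 869 of 7596 tested genes with an annotated 3′ UTR (11.4%). It was in the last exon in each case, the third gene being RFC3, a subunit of the clamp loader. In treated against untreated miR-139 cells, the log2 difference was −0.03 ± 0.24 SE for CDC6, −0.02 ± 0.30 SE for CHAF1B, a subunit of the chromatin assembly factor CAF-1, and −0.17 ± 0.18 SE for RFC3 (limma adjusted p = 1.00 each). A match describes the letters and is not a measured site.

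Doxycycline in the scrambled line gave 0 called genes of the 42, beside 0% of all tested genes, with unadjusted p under 0.05 for 0 of the 42 and for 47 of all tested genes (limma). The median of the 42 was 0.03, with 26 positive, against 0.02 over all tested genes. BLM, the Bloom syndrome helicase, had 26.8, 29.8 and 21.9 FPKM in the NE, C and TR libraries of treated scrambled cells, against 22.7, 21.1 and 21.0 FPKM in untreated scrambled cells, a log2 difference of 0.26 ± 0.16 SE. It was higher in each treated library, although the groups overlapped. E2F2 had 2.26, 1.64 and 1.28 FPKM in treated scrambled cells, against 2.84, 1.75 and 1.96 FPKM in untreated scrambled cells (−0.22 ± 0.23 SE). RAD51AP1 had 39.1, 46.7 and 35.3 FPKM in treated scrambled cells, against 32.1, 41.0 and 36.3 FPKM in untreated scrambled cells (0.14 ± 0.15 SE). Their adjusted p-values were 1.00 (limma), and 0 of the 42 genes had groups that did not overlap, beside 2.69% of all tested genes.

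The doxycycline response did not differ detectably between the lines. The interaction called 0 of the 42 genes and 0% of all tested genes (limma), with unadjusted p under 0.05 for 0 of the 42 and for 41 of all tested genes. The median of the 42 was −0.01, with 16 positive, beside −0.02 over all tested genes. The smallest p-values belonged to E2F2 (0.49 ± 0.32 SE), BLM (−0.31 ± 0.22 SE) and PRIM1 (−0.29 ± 0.22 SE). Intervals were wide in this comparison, fitted without a term for column tag: 29 of the 42 lay within 1 log2 unit of 0 on either side.

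Between the treated lines, 0 of the 42 genes were called, beside 0% of all tested genes, with unadjusted p under 0.05 for 0 of the 42 and for 105 of all tested genes (limma). The median log2 difference of treated miR-139 minus treated scrambled cells was 0.05, with 31 positive, against −0.01 over all tested genes. E2F2 had 3.02, 3.43 and 2.04 FPKM in the NE, C and TR libraries of treated miR-139 cells, against 2.26, 1.64 and 1.28 FPKM in treated scrambled cells, a log2 difference of 0.49 ± 0.23 SE. PRIM1 differed by −0.31 ± 0.16 SE and CCNE1 by 0.24 ± 0.13 SE, and the limma adjusted p of all 3 was 1.00 (0.373 to 0.634 with the replicate block). The groups of 3 were apart for 1 of the 42 genes, beside 4.19% of all tested genes. That gene, named after its values were seen, was CLSPN, the checkpoint adaptor claspin, with 13.8, 12.4 and 12.01 FPKM in treated miR-139 cells, against 11.1, 8.83 and 11.1 FPKM in treated scrambled cells.

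Between the untreated lines, 0 of the 42 genes were called, beside 0% of all tested genes, with unadjusted p under 0.05 for 1 of the 42 and for 58 of all tested genes (limma). The median of untreated miR-139 minus untreated scrambled cells was 0.08, with 36 of 42 positive, against 0.00 over all tested genes. BLM had 35.3, 24.2 and 26.6 FPKM in the NE, C and TR libraries of untreated miR-139 cells, against 22.7, 21.1 and 21.0 FPKM in untreated scrambled cells, a log2 difference of 0.38 ± 0.16 SE (adjusted p = 1.00). Its groups did not overlap, as for 1 of the 42 genes and 2.91% of all tested genes. POLA1 had 21.6, 16.1 and 14.2 FPKM in untreated miR-139 cells, against 11.1, 13.9 and 15.4 FPKM in untreated scrambled cells (0.33 ± 0.18 SE), and most of that gap was in the NE libraries. POLD3, an accessory subunit of polymerase delta, had 39.9, 30.6 and 27.7 FPKM in untreated miR-139 cells, against 30.0, 26.4 and 27.8 FPKM in untreated scrambled cells (0.20 ± 0.14 SE). These comparisons share libraries with each other, so the 5 sets of values are not independent.

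Leaving out the NE libraries, and using the column tag as a replicate block, each again gave 0 called of the 42 genes in the 5 comparisons. With the replicate block, an unadjusted p under 0.05 was found for 1 of the 42 genes in the miR-139 line (treated against untreated), beside 4.48% of all tested genes, for 1 in the scrambled line, beside 4.0%, and for 1 in the interaction, beside 3.44%. Between the treated lines it was found for 5 of the 42, beside 7.18% of all tested genes, and between the untreated lines for 5, beside 4.45%. Over all tested genes the block gave 2, 0, 1, 11 and 0 calls in the same order, against 0 in each without it.

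The doxycycline difference of these genes took opposite signs under different column tags. Treated minus untreated was positive in 12 of the 42 genes in the NE libraries of the miR-139 line (median −0.10), in 37 in its C libraries (median 0.14) and in 11 in its TR libraries (median −0.07). In the scrambled line, it was positive in 30 genes in NE (median 0.06), in 37 in C (median 0.13) and in 6 in TR (median −0.14). Over all tested genes the 6 medians lay between −0.01 and 0.05, and 48.4% to 60.1% of genes were positive. The median of 0.05 and the 60.1% belonged to NE of the scrambled line, where the 42 genes had a similar median. Each of these values rests on 1 library against 1 and has no replicate.

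The doxycycline difference in C minus that in TR, fitted over both lines, was positive in 41 of the 42 genes with a median of 0.25, against 0.00 over all tested genes. This comparison was chosen after the values were seen. It called 0 of the 42 and 0% of all tested genes (limma), and unadjusted p-values under 0.05 numbered 0 of the 42 and 188 of all tested genes. The 42 genes move together within a library, so their shared sign is not that many separate observations. Between the lines, the miR-139 minus scrambled difference was likewise positive in 36 of 42 treated and 39 of 42 untreated genes in C (medians 0.23 and 0.21). In TR it was positive in 22 treated and 16 untreated genes (medians 0.01 and −0.02), and in NE in 17 treated and 27 untreated genes (medians −0.06 and 0.06). Over all tested genes, the treated and untreated medians were 0.00 and 0.01 in C, 0.00 and 0.01 in TR, and −0.03 and −0.04 in NE. Between 45.6% and 52.0% of all tested genes were positive.

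**Figure D2:**
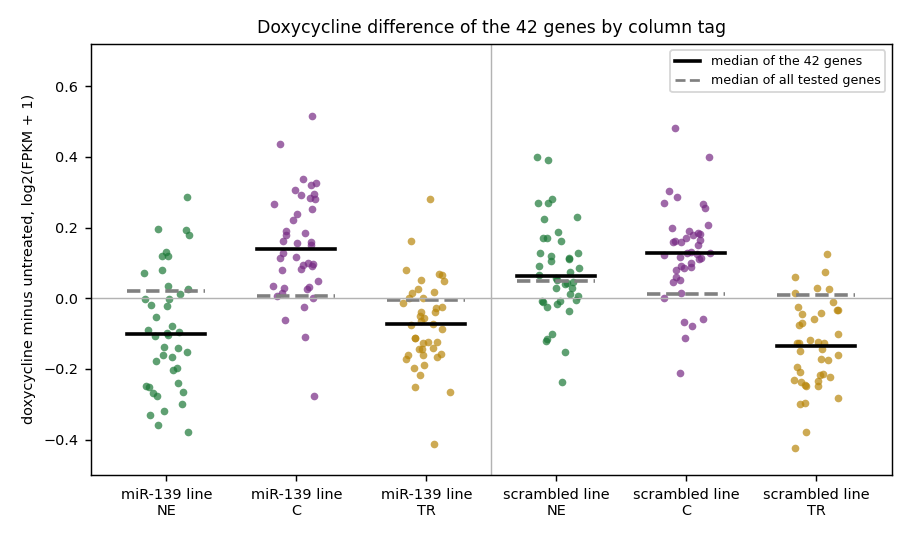
Treated minus untreated log2(FPKM + 1) of each of the 42 genes (points) in the miR-139 line and the scrambled line, by column tag; black bars are medians of the 42 genes and dashed grey bars medians of all tested genes. The points sit mostly above 0 in C of both lines (medians 0.14 and 0.13) and mostly below 0 in TR (medians −0.07 and −0.14).

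The largest contrast among these genes was between libraries of different tags. In the NE libraries, 32 of the 42 genes were higher than in the C and TR libraries and 0 were lower (limma with terms for group and tag). Over all tested genes, 28.0% were called higher (2739 genes) and 2343 were called lower, so the NE libraries differed in many genes besides these. The median log2 difference of the 42 was 0.51, against 0.02 over all tested genes, and 41 of the 42 were positive. All 4 NE libraries lay above all 8 others in 25 of the 42 genes, against 14.0% of all tested genes. The 42 genes summed to between 2493 and 2655 FPKM in NE, against 1615 to 2053 FPKM in C and TR. What the NE tag marks is not given, and the cause of this difference was not tested. In bulk RNA, a larger share of cells in S phase and more of these RNAs per cell cannot be told apart.

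**Figure D3:**
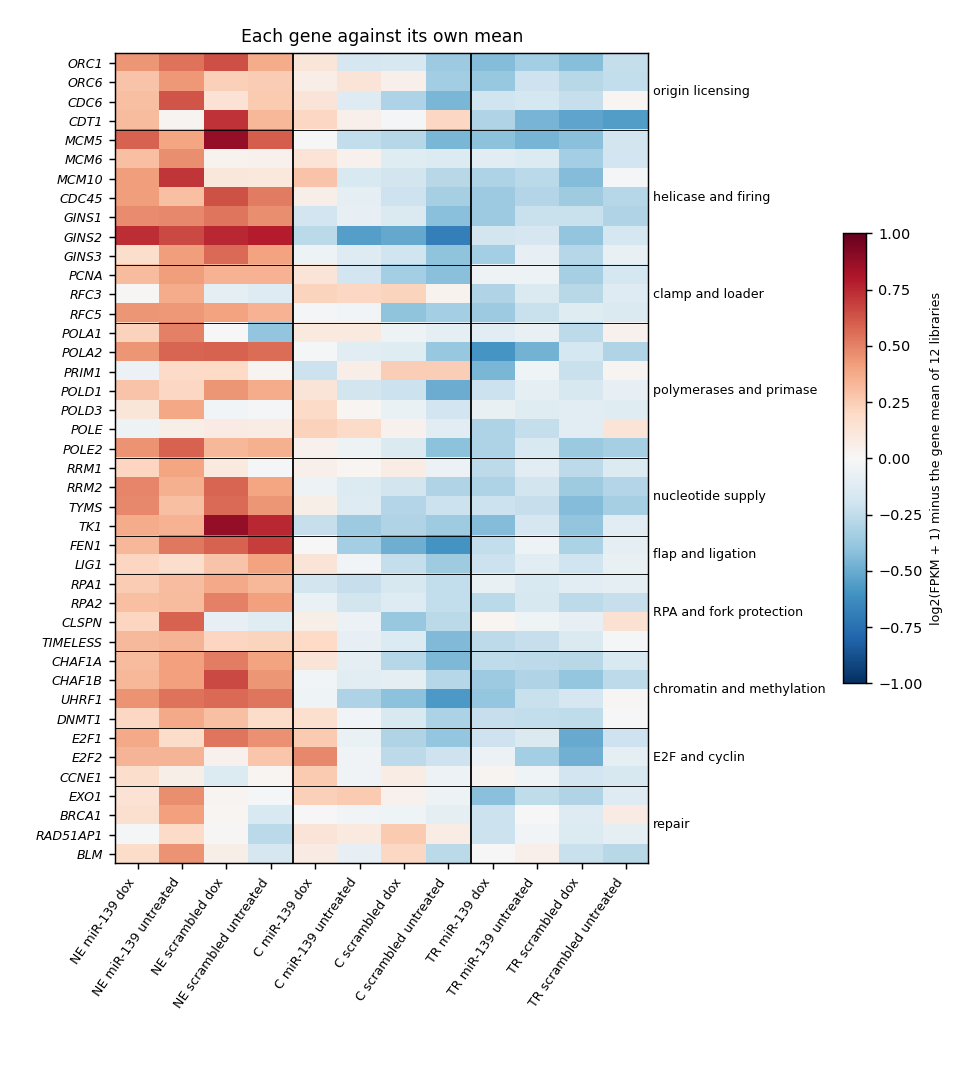
Log2(FPKM + 1) of each gene minus its mean over the 12 libraries, with the NE libraries on the left, then C and TR, and within a tag the treated and untreated miR-139 line and the treated and untreated scrambled line; genes are grouped by role. The 4 NE columns are red for most licensing, helicase, nucleotide and chromatin genes, whereas the polymerase and repair rows are mixed.

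All 4 licensing genes were higher in NE. Values of the 4 NE libraries are given here and below for treated and untreated miR-139 cells and then treated and untreated scrambled cells. ORC6 had 59.2, 65.9, 57.5 and 57.9 FPKM in the NE libraries, against 37.1, 41.3 and 53.1 FPKM as the lowest, median and highest of the 8 C and TR libraries, a log2 difference of 0.45 ± 0.08 SE (adjusted p = 0.00029, limma). The NE libraries were above all others. ORC1 differed by 0.75, the loading factor CDC6 by 0.50 and its partner CDT1 by 0.52, and CDT1 was the member of this role whose NE values (37.4, 30.5, 49.7 and 37.7 FPKM) overlapped the others.

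All 7 helicase and firing genes were higher in NE, with the largest difference of the 42 in GINS2. GINS2 had 38.3, 36.4, 38.7 and 39.8 FPKM in the NE libraries, against 13.7, 17.8 and 20.1 FPKM as the lowest, median and highest of the 8 C and TR libraries. The NE values were all above the highest other value by a wide margin, with a log2 difference of 1.10 ± 0.08 SE (adjusted p = 7.93e-07, limma), a 2.14-fold ratio on this scale. MCM5, a subunit of the replicative helicase, had 109, 94.6, 133 and 110.1 FPKM in the NE libraries, against 51.9, 56.3 and 71.6 FPKM as the lowest, median and highest of the 8 C and TR libraries (0.93 ± 0.09 SE, adjusted p = 9.40e-06).

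GINS1 had 57.1, 57.2, 59.5 and 56.4 FPKM in the NE libraries, against 30.3, 34.7 and 38.4 FPKM as the lowest, median and highest of the 8 C and TR libraries, and its NE libraries varied by only 1.33 FPKM (SD, n = 4). Its log2 difference was 0.73 ± 0.06 SE (adjusted p = 4.42e-06, limma). CDC45, the helicase cofactor, differed by 0.70, GINS3 by 0.58, the initiation factor MCM10 by 0.51 and MCM6 by 0.32.

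Of the clamp and loader genes, 2 of 3 were higher. PCNA had 371, 399, 378 and 379.5 FPKM in the NE libraries, against 222, 262 and 325 FPKM as the lowest, median and highest of the 8 C and TR libraries (0.54 ± 0.08 SE, adjusted p = 0.00014, limma). RFC5 differed by 0.61 and RFC3 by 0.06, the last not called (adjusted p = 0.572).

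Polymerase and primase genes were split: 3 of 7 were higher in NE and 4 were not called. POLA2, the regulatory subunit of polymerase alpha, had 40.3, 44.5, 44.7 and 43.8 FPKM in the NE libraries, against 19.2, 24.8 and 29.2 FPKM as the lowest, median and highest of the 8 C and TR libraries (0.81 ± 0.09 SE, adjusted p = 1.11e-05, limma). POLE2, a subunit of polymerase epsilon, differed by 0.65 and POLD1 by 0.49. The other subunits of the same enzymes were not called: POLA1 at 0.13, PRIM1 at 0.13, POLD3 at 0.17 and POLE at 0.06. POLE had 30.7, 33.2, 33.8 and 33.5 FPKM in the NE libraries, against 25.5, 31.1 and 37.4 FPKM as the lowest, median and highest of the 8 C and TR libraries, so its NE values fell inside the range of the others (adjusted p = 0.584).

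All 4 nucleotide supply genes were higher in NE. TK1, thymidine kinase, had 122, 119, 173 and 159 FPKM in the NE libraries, against 69.3, 74.6 and 86.9 FPKM as the lowest, median and highest of the 8 C and TR libraries (0.88 ± 0.10 SE, adjusted p = 1.30e-05, limma). RRM2 had 179, 164, 192 and 169 FPKM in the NE libraries, against 99.9, 108 and 124 FPKM as the lowest, median and highest of the 8 C and TR libraries (0.68 ± 0.07 SE, adjusted p = 8.57e-06). For both genes the NE libraries were above all others, and within NE those of the scrambled line were the highest for TK1.

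RRM1, the large subunit of the same enzyme as RRM2, had 181, 205, 167 and 154 FPKM in the NE libraries, against 129.7, 146 and 164 FPKM as the lowest, median and highest of the 8 C and TR libraries (0.26 ± 0.07 SE, adjusted p = 0.00782, limma), and the ranges overlapped. TYMS, thymidylate synthase, differed by 0.67. Processed copies of RRM2 reached at most 0.255 FPKM, against a mean of 132 FPKM for RRM2 itself. TYMS shares 967 exonic bases on the opposite strand with ENOSF1 (8.07 FPKM). The library kit keeps strand, but whether the counting used it is not given.

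Both lagging-strand genes were higher. FEN1, the flap endonuclease, had 101, 116, 121 and 129.7 FPKM in the NE libraries, against 52.6, 65.7 and 79.8 FPKM as the lowest, median and highest of the 8 C and TR libraries (0.80 ± 0.10 SE, adjusted p = 4.26e-05, limma), with the NE libraries above the rest. LIG1, DNA ligase I, differed by 0.40. FEN1 shares 166 exonic bases on the opposite strand with TMEM258 (171 FPKM) and 49 on the same strand with FADS2 (96.3 FPKM).

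Of the genes for single-strand binding and fork protection, 3 of 4 were higher. RPA1, the large subunit of replication protein A, had 111, 115, 121 and 117 FPKM in the NE libraries, against 78.3, 83.3 and 88.3 FPKM as the lowest, median and highest of the 8 C and TR libraries (0.47 ± 0.06 SE, adjusted p = 2.66e-05, limma), and no NE library overlapped the others. RPA2 differed by 0.58 and TIMELESS by 0.41, whereas CLSPN, at 0.22, was not called (adjusted p = 0.0928).

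All 4 chromatin and methylation genes were higher. UHRF1, which recruits DNA methyltransferase to hemimethylated sites, had 56.2, 60.1, 61.1 and 59.9 FPKM in the NE libraries, against 27.2, 33.8 and 41.1 FPKM as the lowest, median and highest of the 8 C and TR libraries (0.79 ± 0.10 SE, adjusted p = 3.09e-05, limma). DNMT1, the maintenance methyltransferase, had 94.2, 106, 100.2 and 92.2 FPKM in the NE libraries, against 65.2, 71.1 and 90.9 FPKM as the lowest, median and highest of the 8 C and TR libraries (0.40 ± 0.09 SE, adjusted p = 0.00175). Neither gene's NE libraries overlapped the others. The CAF-1 subunits CHAF1A and CHAF1B differed by 0.62 and 0.69.

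E2F1 had 51.4, 44.8, 57.6 and 54.3 FPKM in the NE libraries, against 27.4, 34.0 and 47.4 FPKM as the lowest, median and highest of the 8 C and TR libraries (0.58 ± 0.11 SE, adjusted p = 0.00055, limma), with an overlap at the C library of treated miR-139 cells (47.4 FPKM). E2F2 was called at 0.37, although it was the least abundant of the 42, and CCNE1 was not called at 0.04 (adjusted p = 0.636).

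Of the 4 repair genes, 1 was called. EXO1 was called at 0.23 ± 0.09 SE with an adjusted p of 0.0488 (limma), just inside the threshold. BLM differed by 0.19 and BRCA1, a homologous recombination factor, by 0.16, and neither was called. RAD51AP1 had 38.5, 44.4, 39.1 and 32.1 FPKM in the NE libraries, against 33.3, 39.6 and 46.7 FPKM as the lowest, median and highest of the 8 C and TR libraries, and was the single gene of the 42 with a negative difference (−0.03 ± 0.07 SE, adjusted p = 0.743).

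**Figure D4:**
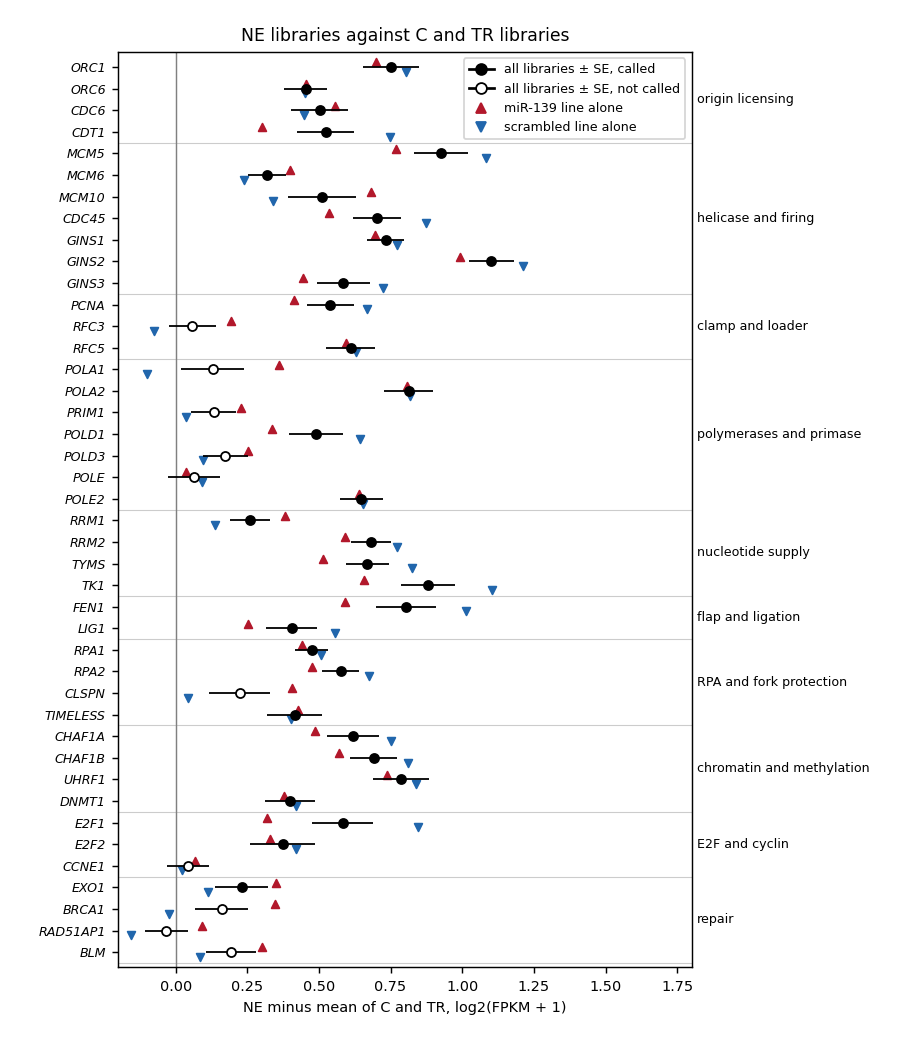
NE minus the mean of C and TR on the log2(FPKM + 1) scale for each gene, as black circles with SE (filled where called, open where not), with the miR-139 line alone as red upward triangles and the scrambled line alone as blue downward triangles. GINS2 lies furthest right at 1.10, and the open circles gather among the polymerase and repair genes.

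The NE difference was present in all 4 groups. Its median over the 42 genes was 0.36 in treated miR-139 cells (41 positive), 0.51 in untreated miR-139 cells (42 positive), 0.55 in treated scrambled cells (39 positive) and 0.57 in untreated scrambled cells (36 positive), against group medians of all tested genes between 0.01 and 0.04. NE was the highest of the 3 tags in all 4 groups for 29 of the 42 genes and for 1901 of all tested genes (19.4%). Within a single line, 35 of the 42 genes were called higher for the miR-139 libraries alone, beside 17.8% of all tested genes, and 30 for the scrambled libraries alone, beside 32.4%. With upper quartile scaling, 30 of the 42 were higher and 0 lower, while over all tested genes the calls turned to 2015 higher (20.6% of tested genes) of 5079 called, against 2739 of 5082.

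Relative depth, by the indirect estimate above, was 0.94 to 1.09 in the NE libraries and 0.720 to 1.497 in C and TR. The number of genes at or above 1 FPKM was 9518 to 9633 in the NE libraries and 9803 to 9884 in C and TR, without overlap. The summed FPKM of 6 epithelial markers was 2460 to 3143 in NE and 2203 to 2580 in C and TR, and that of the 3 mesenchymal markers was 1459 to 1989 in NE and 1797 to 2697 in C and TR. The mesenchymal gene FN1, fibronectin, averaged 60.00 ± 24.2 FPKM in NE and 315 ± 138 FPKM in C and TR. The other 2 mesenchymal markers, VIM and CDH2, were not called (−0.03 and −0.14, adjusted p 0.849 and 0.0979, limma). Of the epithelial markers, KRT8 (0.37) and KRT19 (0.35) were called higher in NE and EPCAM (−0.51) lower. The part of depth, of the number of genes at or above 1 FPKM and of these markers in the result was not tested.

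Transcript length and base composition moved with the NE difference across all genes. Genes with annotated transcripts of up to 1000 bases had a median NE difference of 0.19 and those over 5000 bases one of −0.14. The median of the 42 genes was above that of all genes in every length bin that held them: 0.58 against 0.16 for the 9 between 1000 and 2000 bases, 0.58 against 0.07 for the 7 between 2000 and 3000, 0.51 against −0.01 for the 19 between 3000 and 5000, and 0.19 against −0.14 for the 7 longer ones. Below the median of their bin were 1 gene between 1000 and 2000 bases, PRIM1, and 3 between 2000 and 3000, RAD51AP1, RFC3 and CCNE1. Spearman's rho of the NE difference with length was −0.26 across the 42 genes and −0.30 across 8218 tested genes with a length, and with GC content 0.42 and 0.36; these are descriptions across genes of the same libraries. After a correction of each library for both, chosen after the values were seen, 40 of the 42 were higher, with a median of 0.44, beside 31.7% of the 8218 genes in that fit, with a median of 0.03.

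**Figure D5:**
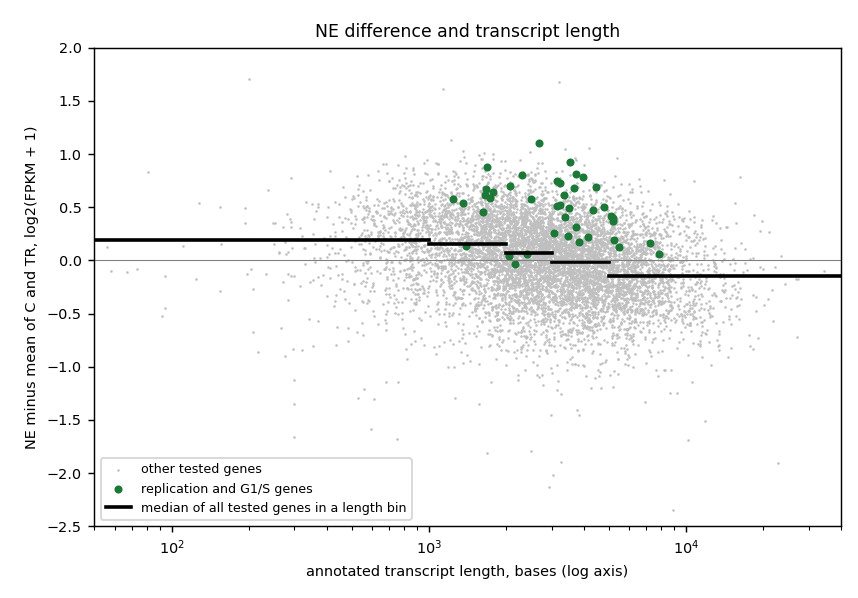
NE minus the mean of C and TR on the log2(FPKM + 1) scale against annotated transcript length (log axis) for tested genes with a length (grey) and the 42 replication and G1/S genes (green), with black bars for the median of all tested genes in 5 length bins. The bars step down with length from 0.19 to −0.14, and nearly all green points lie above them.

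E2F-type letters are shown because E2F control is what these genes are best known for. RefSeq (GRCh38.p14) windows of 250 bases before to 50 after a transcription start were searched on both strands for TTTGGCGC, TTTCCCGC, TTTGGCGG and TTTCGCGC, some of which can overlap, as they do in MCM6. Capitals mark a match. The windows are those of GINS2, with the largest NE difference, PCNA, the most abundant gene, E2F1, and RAD51AP1, which held no match and had the lowest NE difference. PCNA is one of 8 genes with more than 1 window; the window shown is the one of its 2 that held a match.
GINS2 (chr16:85688905-85689204, minus strand): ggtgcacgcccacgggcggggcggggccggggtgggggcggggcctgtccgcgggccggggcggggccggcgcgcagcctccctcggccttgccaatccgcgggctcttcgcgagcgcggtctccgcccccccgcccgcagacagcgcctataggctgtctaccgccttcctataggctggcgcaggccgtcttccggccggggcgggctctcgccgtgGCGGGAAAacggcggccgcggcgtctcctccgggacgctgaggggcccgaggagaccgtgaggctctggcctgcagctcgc
PCNA (chr20:5126573-5126872, minus strand): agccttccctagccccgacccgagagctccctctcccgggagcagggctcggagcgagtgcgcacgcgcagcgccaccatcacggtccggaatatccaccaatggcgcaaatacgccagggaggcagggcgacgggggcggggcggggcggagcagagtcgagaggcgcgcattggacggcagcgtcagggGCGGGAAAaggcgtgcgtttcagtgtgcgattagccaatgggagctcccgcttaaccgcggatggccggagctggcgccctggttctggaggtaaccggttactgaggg
E2F1 (chr20:33686336-33686635, minus strand): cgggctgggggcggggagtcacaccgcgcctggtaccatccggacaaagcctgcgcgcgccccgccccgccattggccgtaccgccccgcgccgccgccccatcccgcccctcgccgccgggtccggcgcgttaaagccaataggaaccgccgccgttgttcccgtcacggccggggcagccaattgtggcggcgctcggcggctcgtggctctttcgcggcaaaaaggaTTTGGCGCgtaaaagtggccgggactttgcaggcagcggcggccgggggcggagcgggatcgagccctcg
RAD51AP1 (chr12:4538640-4538939, plus strand): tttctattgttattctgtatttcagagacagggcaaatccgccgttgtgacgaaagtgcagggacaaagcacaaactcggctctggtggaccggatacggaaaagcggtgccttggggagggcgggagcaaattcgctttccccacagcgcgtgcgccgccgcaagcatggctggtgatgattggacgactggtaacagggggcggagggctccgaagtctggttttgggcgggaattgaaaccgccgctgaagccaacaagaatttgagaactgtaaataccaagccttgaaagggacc
At least 1 match lay in a window of 23 of the 39 genes with one (59.0%), against 7.52% of the 6451 tested genes with a window and 4.05% of all 27305 genes with one. CCAAT, also searched on both strands, was found for 25 of 39 (64.1%), against 44.0% and 39.7% in the same sets. The median NE difference was 0.52 for the 23 genes with E2F letters, of which 19 were called, and 0.46 for the 16 without, of which 11 were called; no test was made. The genes without a window were MCM5, RPA2 and POLD3. These matches are letters in a window and say nothing of binding.

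Neighbouring gene lists were read for the same contrast, as counts beside the 28.0% of tested genes that were higher in NE. Only genes with a row could be read. These were 25 of 51 listed other replication factors and 18 of 31 cyclin, CDK, RB and E2F genes (17 tested). They were 17 of 24 homologous recombination and checkpoint genes, 22 of 28 G2 and mitosis genes and 10 of 14 p53 and growth arrest genes. Of the 25 other replication factors, 13 were higher and 2 lower, with a median of 0.24. Among the higher ones were the polymerase epsilon subunit POLE4 (98.5 ± 17.7 FPKM in NE and 55.8 ± 4.98 FPKM in C and TR) and DUT, which hydrolyses dUTP (198 ± 24.0 FPKM in NE and 125 ± 12.7 FPKM in C and TR); the lower ones were POLD4 and ATAD5. Of 17 cyclin, CDK, RB and E2F genes, 7 were higher and 3 lower (median 0.20), with CDK2 at 107 ± 9.26 FPKM in NE and 62.6 ± 6.65 FPKM in C and TR and the repressor E2F7 at 21.7 ± 5.18 FPKM in NE and 31.0 ± 5.52 FPKM in C and TR. Of 17 homologous recombination and checkpoint genes, 5 were higher and 2 lower (median −0.03), and PALB2, a partner of BRCA2, averaged 7.201 ± 1.49 FPKM in NE and 11.4 ± 1.23 FPKM in C and TR. Of 22 G2 and mitosis genes, 12 were higher and 4 lower (median 0.28), among them CDC20, an activator of the anaphase-promoting complex, at 133 ± 21.4 FPKM in NE and 67.5 ± 5.64 FPKM in C and TR and the topoisomerase TOP2A at 91.2 ± 16.9 FPKM in NE and 111 ± 3.60 FPKM in C and TR. Of 10 p53 and growth arrest genes, 3 were higher and 3 lower (median 0.12). Means are given with SD over 4 NE and 8 C and TR libraries.

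Between C and TR the 42 genes were closer. In C, 3 of them were higher and 0 lower (limma), while 8.16% of all tested genes were called higher and 8.49% lower, and the median of the 42 was 0.12, against 0.01 over all tested genes. With the groups in the same order, CDT1 had 34.6, 30.9, 29.6 and 34.5 FPKM in the C libraries, against 24.0, 21.3, 20.3 and 19.9 FPKM in the TR libraries, a log2 difference of 0.58 ± 0.11 SE (adjusted p = 0.00452). EXO1 had 14.7, 15.0, 12.8 and 11.9 FPKM in C, against 8.98, 10.2, 9.84 and 11.2 FPKM in TR (0.40 ± 0.11 SE, adjusted p = 0.0217).

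RFC3 had 32.2, 31.9, 32.2 and 28.2 FPKM in C, against 22.1, 24.8, 22.5 and 25.1 FPKM in TR (0.38 ± 0.09 SE, adjusted p = 0.0142, limma). For CDT1, EXO1 and RFC3, every C library was above every TR library. In the miR-139 line alone 9 of the 42 were called higher, beside 9.02% of all tested genes. In the scrambled line alone 1 was higher, beside 7.41% of all tested genes, and 2 were lower, beside 7.25%, so the count depends on which libraries enter. EXO1 lost its call in 8 of 25 alternatives and RFC3 in 6, with adjusted p-values up to 0.512 and 0.539 in the untreated libraries alone. Both were lost without the C or the TR library of treated miR-139 cells and without the C library of treated scrambled cells, and EXO1 also without the C or the TR library of untreated miR-139 cells (adjusted p 0.0553 to 0.0947 for these omissions).

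The NE difference itself was set between the lines, a comparison chosen after the values were seen. In the miR-139 line minus the scrambled line, 3 of the 42 genes had a smaller NE difference and 0 a larger one, beside 10.3% of all tested genes with a smaller one (limma, 2 libraries per line and tag). For E2F1 the NE difference was 0.32 for miR-139 cells and 0.85 for scrambled cells (−0.53 ± 0.14 SE, adjusted p = 0.0276). For TK1 it was 0.66 and 1.10 (−0.45 ± 0.13 SE, adjusted p = 0.0419), and for CDC45 0.53 and 0.87 (−0.34 ± 0.11 SE, adjusted p = 0.0494). All 3 were lost without the NE or the TR library of untreated miR-139 cells, without the C library of treated miR-139 cells and without the NE library of either scrambled group. Of 18 alternatives, E2F1 kept its call in 10, TK1 in 5 and CDC45 in 2, and with upper quartile scaling the median of the 42 turned to 0.04, against −0.06 without it. Among genes whose NE difference was larger in the miR-139 line, POLA1 (0.36 against −0.10) and BRCA1 (0.35 against −0.02) were not called (adjusted p 0.0819 and 0.0845).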

How the data were processed

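CAL62 libraries from poly(A) RNA were made with a directional kit and sequenced on a HiSeq2500, per the labels' protocols. The authors deposited FPKM values for 37471 genes in 12 columns. The submitters' processing notes list FastQC 0.11.0, TopHat2 2.0.10, Bowtie 1.0.0, Cufflinks, HTSeq, STAR 2.5 and SAMtools 0.1.19 and 1.3.1, with the builds GRCh37 and hg19; which tool made the FPKM values, and whether strand was used, is not given in the sources used here. GENCODE 29 (GRCh38) and RefSeq (GRCh38.p14) gave lengths, sites, promoters and overlaps by gene symbol, and 84.0% of tested genes had a length.

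Columns were mapped to groups by name. Log2(FPKM + 1) of the 9778 genes with a mean of at least 1 FPKM was fitted with limma 3.58.1 (R 4.3.3, variance trend, two-sided, Benjamini-Hochberg adjustment over all tested genes, threshold 0.05), for the 4 group means and, for the tags, with terms for group and tag. Adding 1 shrinks fold changes of weakly expressed genes.

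Libraries with the same column tag deviated together, although what a tag marks is not given: after removal of group means, 18 pairs of libraries with the same tag correlated at 0.33 to 0.86, and 36 pairs with other tags at −0.66 to 0.14. The fit with tag as replicate block was an alternative, as were other pseudocounts, filters, scalings and leaving out each library.

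Genes are given in full if they were among the 6 largest or the 6 smallest adjusted p-values of those called, the 3 smallest p-values where none was called, or the most abundant of a role. The genes and the other lists were chosen with earlier results of these data known. Listed genes with no row are not analysed here.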

Additional observations from a re-analysis of the deposited data

Results flagged for a closer look

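The difference between NE and the mean of C and TR was called smaller in the miR-139 line for 3 of the 42 genes (7.14%). The call is by limma's test of that difference (miR-139 line minus scrambled line). The value was −0.53 for E2F1, −0.45 for TK1 and −0.34 for CDC45 on the log2(FPKM + 1) scale. The comparison was chosen after the values were seen and rests on 2 libraries per line and tag. Of the 9778 tested genes, 1006 (10.3%) were called with a smaller and 607 (6.21%) with a larger difference. The calls are thus not particular to the 42 genes. Of 18 alternatives, E2F1 kept its call in 10, TK1 in 5 and CDC45 in 2.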

How the results depend on the processing

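For the 5 group comparisons, 0 of the 42 genes were called in each of 21 alternatives per comparison, including the replicate block, the NE libraries left out, other filters and scalings, and each library left out (0 to 0). The count higher in NE stayed between 27 (untreated libraries) and 40 (length and GC correction) over 24 alternatives, and between 30 and 34 with a library left out. The C minus TR count of 3 became 6 without the NE libraries, 9 in the miR-139 line, 1 in untreated libraries, 5 at a mean of at least 5 FPKM, 1 with no filter, 5 with quantile normalization and 9 with length and GC correction. It ran from 1 to 8 with a library left out: 7 without NE of untreated miR-139, 1 without TR of treated miR-139, 5 without NE and 8 without TR of untreated scrambled, and 1 without C of treated scrambled cells. The count of 3 for the NE difference between lines became 6 at a mean of at least 5 FPKM, 0 with no filter, 5 with upper quartile scaling (4 of them larger), 1 with quantile normalization and 0 without the variance trend, and ran from 0 to 4 with a library left out. The causes were not tested. The doxycycline difference in C minus TR gave 0 calls in all 18 alternatives. Alternatives of these last 2 comparisons were added after seeing the data. Absolute depth is unknown, which limits E2F2 most, at 1.28 to 3.43 FPKM.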
